A study of Mus musculus with 38 samples.

Results

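The transcripts described here are those of 10 heat shock proteins, Hspa1a, Hspa1b, Hspa8, Hsph1, Dnajb1, Dnaja1, Hsp90aa1, Hspb1, Hspd1 and Hspe1, in mouse liver. They were taken by gene symbol, with earlier results of these data known, and are 10 of 17729 genes tested. All 10 are reported whatever their values. On the array they are covered by 25 of 45101 probe sets, a probe set being a group of short probes against a single transcript. The animals were male mice of the outbred CD-1 stock, 6 to 8 weeks old per the labels, and their liver RNA was hybridised to Affymetrix mouse 430 2.0 arrays, with 38 arrays in 10 groups. In the conazole experiment the groups were propiconazole at 2500 ppm in the diet, triadimefon (spelled tridimefon in the labels) at 1800 ppm, and control feed, each for 4 or 30 days with 3 livers per group. In the phenobarbital experiment the groups were phenobarbital at 850 ppm and control feed, each for 4 or 30 days with 5 livers per group. The labels give mean intakes of 349.6 ± 46.7 mg/kg/day for propiconazole, 257.1 ± 33.5 mg/kg/day for triadimefon and 97.2 ± 5.9 mg/kg/day for phenobarbital, so the doses were not matched. Propiconazole and triadimefon are triazole fungicides that inhibit a fungal sterol demethylase, and phenobarbital is a barbiturate used as a model inducer of liver drug metabolism. Both experiments had their own controls, so every compound was compared with the control livers of its own experiment and day, and levels are not compared between the experiments.

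Heat shock proteins are chaperones: they hold unfolded or newly made proteins, help them to fold, and pass those that cannot fold on for degradation. HSP70 proteins bind and release client proteins in a cycle driven by ATP, in which HSP40 (J-domain) proteins deliver the client and speed ATP hydrolysis, and HSP110 proteins and other exchange factors release ADP. Many of their genes are driven by heat shock factor 1, a transcription factor that binds inverted repeats of nGAAn, the heat shock element, when unfolded protein accumulates. Liver cells make and secrete large amounts of protein and keep the constitutive chaperones high.

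The promoters of the 4 genes that rose on day 4 of propiconazole feeding, and of Hspe1, are shown for what their sequences share and where they differ. RefSeq promoter sequences (build GRCm38.p6, 250 bases before and 50 after each start) were given for 8 of the 10 genes, with 13 starts among them. Capitals mark matches to GAANNTTC or TTCNNGAA, the 2 ways in which a pair of neighbouring units of the element can be written. Each is its own reverse complement, so a match holds on both strands, and overlapping matches are drawn as 1 run. All sequences run 5′ to 3′ on the gene's strand and end at the base before the start, with 250 bases shown for each gene except Hspe1 (150 bases).
Hspa1b, chr17:34959239-34959488, minus strand: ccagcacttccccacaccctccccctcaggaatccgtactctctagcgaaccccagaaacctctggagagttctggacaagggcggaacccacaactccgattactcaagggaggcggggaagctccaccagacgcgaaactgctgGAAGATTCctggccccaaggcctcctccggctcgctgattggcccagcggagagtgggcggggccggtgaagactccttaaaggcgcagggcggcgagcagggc
Hsph1, chr5:149636337-149636586, minus strand: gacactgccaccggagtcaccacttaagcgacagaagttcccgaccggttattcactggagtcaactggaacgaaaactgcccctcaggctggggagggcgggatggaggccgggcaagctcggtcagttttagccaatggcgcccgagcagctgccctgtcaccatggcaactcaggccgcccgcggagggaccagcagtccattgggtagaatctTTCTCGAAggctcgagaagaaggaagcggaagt
Dnaja1, chr4:40722218-40722467, plus strand: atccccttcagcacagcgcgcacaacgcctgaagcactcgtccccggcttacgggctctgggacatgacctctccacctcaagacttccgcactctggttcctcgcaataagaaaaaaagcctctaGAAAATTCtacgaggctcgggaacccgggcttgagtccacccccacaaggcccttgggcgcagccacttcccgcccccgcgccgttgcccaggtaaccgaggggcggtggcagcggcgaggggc
Dnajb1, chr8:83607925-83608174, plus strand: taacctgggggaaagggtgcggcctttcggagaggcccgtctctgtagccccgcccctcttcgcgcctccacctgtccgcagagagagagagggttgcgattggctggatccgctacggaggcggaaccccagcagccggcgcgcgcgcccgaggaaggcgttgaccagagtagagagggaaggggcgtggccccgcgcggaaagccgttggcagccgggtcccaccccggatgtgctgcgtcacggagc
Hspe1, chr1:55087998-55088147, plus strand: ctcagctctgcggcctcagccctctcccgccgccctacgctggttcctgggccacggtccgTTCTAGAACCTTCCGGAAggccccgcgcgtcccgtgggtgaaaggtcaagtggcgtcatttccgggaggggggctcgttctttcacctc

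At least 1 of these pairs lay in the 300-base window of a start in 7 of the 8 genes (8 of 13 starts), Dnajb1 being without one and Dnaja1 having one at the start shown but none at its other 2 starts, while 15.1% of 32851 RefSeq mouse promoters of this length held one. A run of 3 units, which is GAANNTTC followed by NNGAA or its reverse complement, occurred in 0.603% of all promoters and in those of Hsph1, Hspd1 and Hspe1. In Hsph1 it lay after the start. Hspd1 and Hspe1, which encode the chaperonin HSP60 and its lid HSP10, lie head to head on chromosome 1, and the windows of Hspe1 and of the second Hspd1 start share 285 of 300 bases, so their matches are the same bases. The windows of Hspa1a and Hspa1b, adjacent genes on chromosome 17, were the same in 247 of the 250 bases before the start. CCAAT, on either strand, was found in 37.4% of all promoters and TATAAA in 13.6%. A match is a description of letters and not of binding.

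Values below are log2(quantile-normalised intensity + 16), whose lowest possible value is 4, and a change is a difference on that scale, which understates changes of dim genes. Errors are SDs for group means and SEs for changes. The test was a limma fit to all 38 arrays with Benjamini-Hochberg adjustment over all 17729 genes, the source of every adjusted p below, and a gene was called where this was under 0.05. Array background was a log2 value of 6.15, from olfactory receptor genes. The other 9 genes were above it on all 38 arrays, and Hspa1a on 22 of 38. The samples are bulk liver, in which fewer cells of a type and less RNA per cell cannot be told apart. All 7 measured hepatocyte markers were above background in every group. On 1 array, propiconazole day 4 replicate 2, the 3′ probe set of Gapdh read 6.39 log2 units above its 5′ probe set. All other arrays lay between -0.37 and 0.22. Such an excess can be a sign of degraded or incompletely copied RNA. The same excess of Actb was 1.84 on that array and at most 1.30 on others. That of Tfrc was 1.31, below the 1.84 to 3.25 of the other conazole arrays, so the control genes did not all go the same way. The members' results in that group are given with and without this array, and those of other genes where the call changes or the change moves by over 1.5-fold.

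On day 4, Hspa1b, Hsph1, Dnajb1 and Dnaja1, which encode cytosolic chaperones of the HSP70 cycle, rose in propiconazole livers relative to control livers, with changes of 1.05 to 2.53 log2 units, and no member fell. All 10 changes were positive, from 0.24 to 3.05, with a median of 1.02, against a median of 0.03 over all genes. The 4 of 10 called higher stand beside 7.36% of all genes called higher in this comparison, and the 0 called lower beside 6.53%. The members were chosen with earlier results of these data known, so these shares do not test them as a set. In 9 of the 10 genes the 3 propiconazole livers lay above all 3 control livers, which held for 9.37% of all genes, while 6.85% lay wholly lower. The number called changed with the setting, as did the number of all genes called higher. With only genes above background tested, 8 members were called, beside 1089 of 9260 genes. With the intensities as deposited 2 were called, beside 221 genes higher and 2377 lower. With the arrays of the same experiment alone 2 were called, beside 141 of 17402 genes. With array weights 0 were called (4 with an unadjusted p under 0.05), beside 44 of 17729 genes. With the 2 compared groups fitted alone 0 were called (8 with an unadjusted p under 0.05), beside 6 of 17184 genes.

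**Figure D1:**
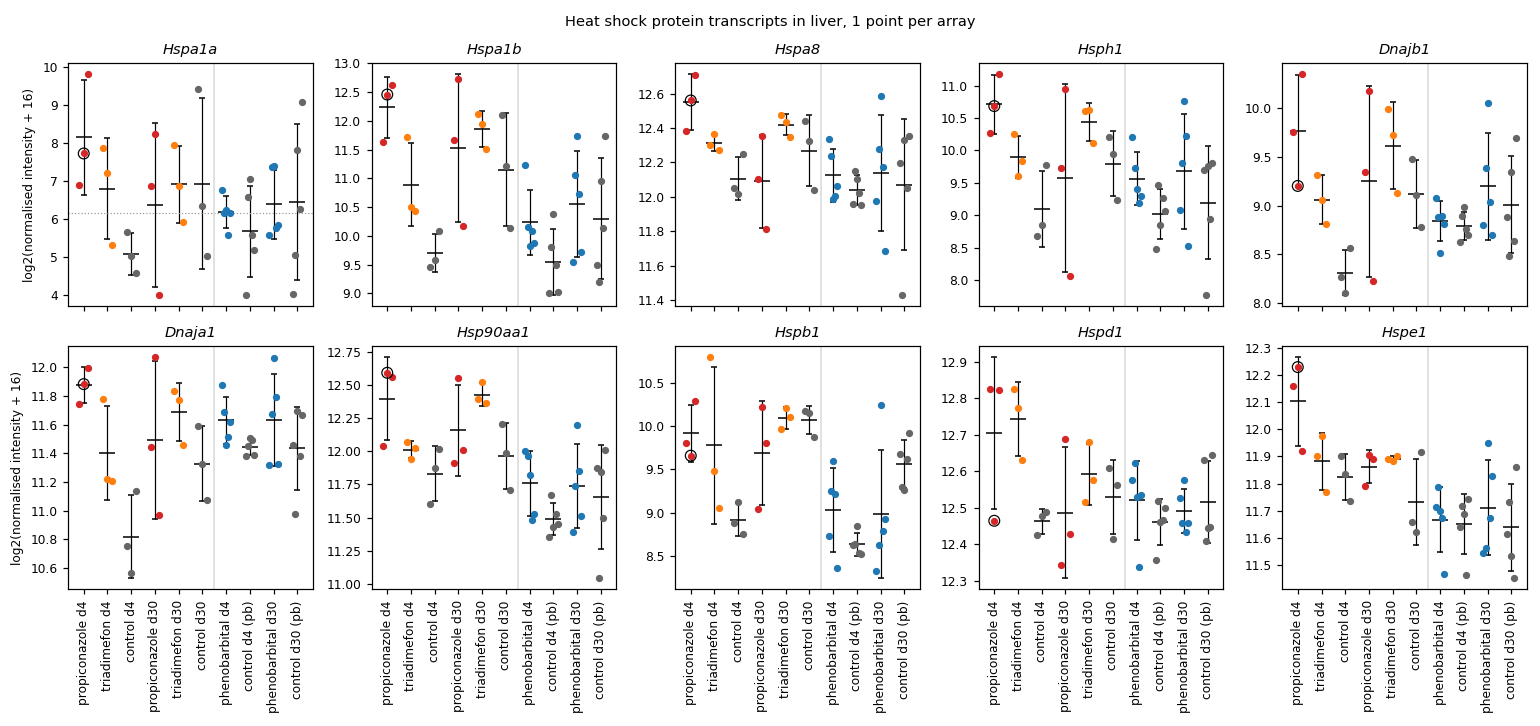
Level of each of the 10 transcripts on every array, as log2(normalised intensity + 16), by compound and day, with bars for the group mean and SD. The circled point is propiconazole day 4 replicate 2, the dotted line in the Hspa1a panel is the array background of 6.15, and the vertical line parts the conazole from the phenobarbital experiment, whose groups are marked pb. On day 4 the propiconazole points lie above the control points in 9 panels, Hspd1 being the exception, while on day 30 the conazole groups overlap in most panels.

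Among the HSP70 proteins, Hspa1b encodes a stress-inducible form that is low in resting cells. It reached 11.63, 12.46 and 12.63 in propiconazole livers on day 4, against 9.46, 9.57 and 10.08 in control livers. The groups were clear of each other by more than their own ranges. Its change was 2.53 ± 0.62, a 5.79-fold higher value on this scale (adjusted p = 0.0066). Without replicate 2 it was 2.42 ± 0.70 (adjusted p = 0.027). All 3 of its probe sets were called, with changes of 2.53 to 3.51.

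Hspa1a, the near-identical neighbour of Hspa1b, has a single probe set. It read 6.90, 7.72 and 9.81 in propiconazole livers on day 4, against 5.67, 5.02 and 4.58 in control livers. The control readings were all below background, so the difference is a bound: at least 3.98-fold higher in propiconazole livers. Without replicate 3, the highest reading, the bound was 2.25-fold, without replicate 1 it was 6.19-fold and without replicate 2 it was 4.66-fold. The fitted change of 3.05 ± 1.11 missed the threshold (adjusted p = 0.062), as did 3.27 ± 1.26 without replicate 2 (adjusted p = 0.10). Because the transcripts of Hspa1a and Hspa1b are almost the same, signal at probe sets of either gene may come from the other, and their values are uncertain as to the gene.

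Hspa8, the constitutive HSC70 that carries out housekeeping folding and clathrin uncoating, is abundant in resting cells. It read 12.38, 12.56 and 12.71 in propiconazole livers on day 4, against 12.05, 12.02 and 12.25 in control livers. The groups did not overlap, and the change of 0.44 ± 0.18 missed the threshold (adjusted p = 0.10, and 0.19 without replicate 2 at the same change). Of its 4 probe sets, another was called, with a change of 0.94 ± 0.29 (adjusted p = 0.033). The probe set with the highest mean, used for the gene, is of the _x_at type, whose probes may bind other transcripts.

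Hsph1 encodes an HSP110 protein, the exchange factor that resets HSP70. It read 10.27, 10.68 and 11.18 in propiconazole livers on day 4, against 8.68, 8.86 and 9.77 in control livers. The lowest treated liver lay above the highest control liver. The change was 1.61 ± 0.54, or 3.05-fold (adjusted p = 0.045). This call rests on single livers: it was lost without propiconazole replicate 2 (1.62 ± 0.62, adjusted p = 0.097), without propiconazole replicate 3 (adjusted p = 0.11), and without control replicate 1 (adjusted p = 0.15) or 2 (adjusted p = 0.13).

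Dnajb1 and Dnaja1 encode the HSP40 partners that load clients onto HSP70, Dnajb1 being the classic heat-inducible form. Dnajb1 read 9.76, 9.20 and 10.35 in propiconazole livers on day 4, against 8.27, 8.10 and 8.56 in control livers. Its change was 1.46 ± 0.36, or 2.75-fold (adjusted p = 0.0072), and 1.74 ± 0.39 without replicate 2 (adjusted p = 0.0049). Replicate 2 was the lowest of the treated livers here. Dnaja1 read 11.74, 11.88 and 11.996 in propiconazole livers, against 10.75, 10.56 and 11.14 in control livers. Its change of 1.05 ± 0.22, or 2.08-fold, had the lowest adjusted p of the 10 genes (0.0017, and 0.0066 without replicate 2). All 5 probe sets of these 2 genes were called, with changes of 0.79 to 1.58.

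Hsp90aa1, the stress-responsive cytosolic HSP90 that matures kinases and steroid receptors, read 12.04, 12.59 and 12.56 in propiconazole livers on day 4, against 11.61, 11.88 and 12.01 in control livers. The groups met at their edges without overlapping, and the change of 0.57 ± 0.21 missed the threshold (adjusted p = 0.067), as did 0.47 ± 0.23 without replicate 2 (adjusted p = 0.23). Its 5 probe sets disagreed: their changes ran from -0.27 ± 0.41 to 1.10 ± 0.27, and only the probe set with the highest of them was called (adjusted p = 0.0075). The called probe set is of the _x_at type, with a mean of 7.71 over all arrays, against 11.88 for the probe set used for the gene. Another of the 5 was above background on only 10 of 38 arrays. Hspb1, a small heat shock protein that holds unfolded protein without ATP, read 9.81, 9.66 and 10.28 in propiconazole livers, against 8.88, 9.13 and 8.75 in control livers. Its change of 0.99 ± 0.37 missed the threshold (adjusted p = 0.069), as did 1.12 ± 0.41 without replicate 2 (adjusted p = 0.087), although no treated liver overlapped the controls.

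The mitochondrial chaperonin genes had small changes. Hspd1 (HSP60) read 12.83, 12.46 and 12.82 in propiconazole livers on day 4, against 12.42, 12.48 and 12.49 in control livers. Replicate 2 alone lay among the controls. The change was 0.24 ± 0.09 with it (adjusted p = 0.075) and 0.36 ± 0.09 without it (adjusted p = 0.010), so that Hspd1 passed the threshold in the smaller set. Hspe1 (HSP10) read 12.16, 12.23 and 11.92 in propiconazole livers, against 11.90, 11.83 and 11.74 in control livers, a change of 0.28 ± 0.11 (adjusted p = 0.081), and 0.21 ± 0.12 without replicate 2 (adjusted p = 0.28). Its other probe set was called with 0.63 ± 0.17 (adjusted p = 0.017). The gene's main probe set is of the _s_at type, which several transcripts share.

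Without replicate 2 the number of members called was again 4, now Hspa1b, Dnajb1, Dnaja1 and Hspd1, beside 4.43% of all genes called higher and 4.87% called lower. Over all 25 probe sets with every array, 24 changes were positive and 12 were called higher, in 7 genes, beside 5.95% of all probe sets called higher and 6.12% called lower. With triadimefon and phenobarbital on day 4 no probe set of the 10 genes was called, beside 1.68% higher and 1.42% lower, and 0.384% higher and 0.184% lower, of all probe sets. Probe sets of 1 gene were read on the same livers and are not replicates.

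**Figure D2:**
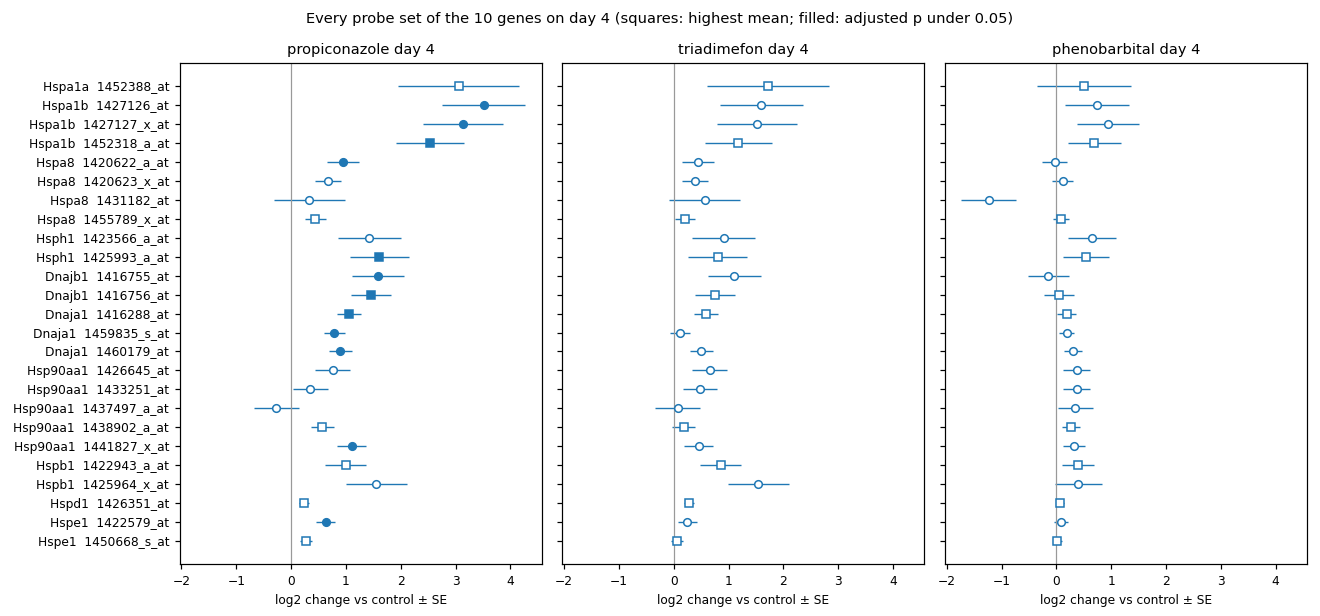
Change from same-day controls at each of the 25 probe sets on day 4, for the 3 compounds, as log2 change with its SE. Squares mark the probe set that stands for its gene and filled symbols those with an adjusted p under 0.05. With propiconazole 12 probe sets are filled, and only 1 Hsp90aa1 probe set lies left of 0, while no probe set is filled with triadimefon or phenobarbital.

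Some markers of other cell types also differed in the same livers. The inflammatory S100a8, a neutrophil and monocyte marker, was at least 15.7-fold higher in propiconazole livers on day 4 than in control livers, in which it was below background (change 4.73 ± 1.34, adjusted p = 0.018). Without replicate 2 the bound was 6.88-fold and the change 3.53 (adjusted p = 0.13), and without replicate 3 the bound was 54.6-fold. The summed level of the 3 measured genes of that marker list of 7 was 7.01 to 12.65 in propiconazole livers and 6.02 to 7.32 in control livers, and 1 of the 3 was called. On day 30, when no member was called, S100a8 was at least 13.3-fold higher in propiconazole livers and at least 17.5-fold higher in triadimefon livers than in control livers (adjusted p = 0.011 and 0.012). The propiconazole bound was 6.17-fold without replicate 2, 6.51-fold without replicate 1 and 59.1-fold without replicate 3. Of 5 biliary markers 2 were called higher with propiconazole on day 4, Epcam (0.38 ± 0.12, adjusted p = 0.025) and Sox9 (at least 1.29-fold, adjusted p = 0.049, and 0.088 without replicate 2), and their list's summed level was 8.998 to 9.21 in propiconazole livers and 8.50 to 8.73 in control livers. No bound held for Sox9 without propiconazole replicate 1 or without replicate 2. Of 6 stellate cell markers Reln was lower (-0.85 ± 0.24, adjusted p = 0.019, and 0.080 without replicate 2), with summed levels of 10.19 to 11.40 in propiconazole livers and 11.10 to 11.87 in control livers. The 3′ excess of Actb was 0.62 to 1.84 in propiconazole livers and 0.80 to 1.30 in control livers on day 4. It was 0.76 to 0.94 in triadimefon livers on day 4 and at most 0.47 in all other groups. The part of these in the changes of the heat shock transcripts was not tested.

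On day 30 no member passed the test with propiconazole. None of the 10 genes was called or had an unadjusted p under 0.05, beside 5.29% of all genes called higher and 5.53% called lower, and 5 of 10 changes were positive, from -0.57 to 0.38. Hspa1b read 11.67, 12.74 and 10.18 in propiconazole livers on day 30, against 12.10, 11.21 and 10.14 in control livers. Hsph1 read 9.72, 10.94 and 8.06 in propiconazole livers, against 10.21, 9.94 and 9.24 in control livers. Dnaja1 read 11.45, 12.07 and 10.97 in propiconazole livers, against 11.59, 11.33 and 11.07 in control livers. In all 3 genes replicate 2 of the propiconazole group was the highest liver of both groups and replicate 3 was at or near the bottom, and the groups overlapped in all 10 genes, where 11.9% of all genes lay wholly higher and 12.4% wholly lower in propiconazole livers. The 95% intervals still allow sizeable changes: -0.88 to 1.64 for Hspa1b and -1.33 to 0.89 for Hsph1. The second Hspe1 probe set, with 0.54 ± 0.17, was the only called probe set of 25 (adjusted p = 0.049, beside 4.09% of all probe sets called higher and 4.52% lower).

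The difference between days was tested as the day 30 change minus the day 4 change. With propiconazole it was negative for all 10 genes, from -3.62 to -0.15, and 8 had an unadjusted p under 0.05, but none was called (lowest adjusted p 0.12, Dnaja1, -0.89 ± 0.30), where 1.24% of all genes were called lower and 0.711% higher. Hspa1b differed by -2.15 ± 0.87 (adjusted p = 0.20) and Hsph1 by -1.83 ± 0.77 (adjusted p = 0.22). The control livers also differed between days. In control livers of the conazole experiment, day 30 stood above day 4 in 9 of 10 genes, with none called and 4 with an unadjusted p under 0.05, beside 2.78% of all genes called higher and 2.54% called lower. Hspa1b averaged 11.15 ± 0.98 in control livers on day 30 and 9.71 ± 0.33 on day 4 (SD, n = 3 each), a difference of 1.44 ± 0.62 (adjusted p = 0.18), and Hspb1 differed by 1.14 ± 0.37 (adjusted p = 0.063). In the fit without propiconazole day 4 replicate 2 the same Hspb1 difference was called (adjusted p = 0.049). Day and array batch cannot be told apart.

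With triadimefon on day 4 all 10 changes were positive, with a median of 0.67 and none called, beside 2.1% of all genes called higher and 1.65% called lower. Hspa1b read 11.72, 10.51 and 10.44 in triadimefon livers, against the same control livers at 9.46, 9.57 and 10.08, a change of 1.18 ± 0.62 (adjusted p = 0.31). Dnaja1 read 11.78, 11.22 and 11.20 in triadimefon livers, against 10.75, 10.56 and 11.14 in control livers, a change of 0.58 ± 0.22 (adjusted p = 0.13). In both genes replicate 1 was the highest triadimefon liver and no triadimefon liver overlapped the controls. Hspd1 came closest to the threshold, at 12.83, 12.77 and 12.63 in triadimefon livers against 12.42, 12.48 and 12.49 in control livers (0.28 ± 0.09, adjusted p = 0.079). Groups did not overlap in 5 of 10 genes, against 10.5% of all genes higher and 8.9% lower in this way, and 4 genes had an unadjusted p under 0.05. Hspa1a was at least 1.57-fold higher in triadimefon livers than in control livers, where it was below background (fitted change 1.71 ± 1.11, adjusted p = 0.44). The bound was 1.37-fold without triadimefon replicate 2, 2.63-fold without replicate 3 and 1.09-fold without replicate 1.

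On day 30 the triadimefon changes were positive in 9 of 10 genes with a median of 0.26, and none was called (1 had an unadjusted p under 0.05), beside 2.41% of all genes called higher and 3% called lower. Hspa1b read 12.12, 11.94 and 11.51 in triadimefon livers, against 12.10, 11.21 and 10.14 in control livers (0.71 ± 0.62, adjusted p = 0.61). Hsp90aa1 was the only gene whose groups did not overlap, at 12.39, 12.52 and 12.36 in triadimefon livers and 12.21, 11.99 and 11.71 in control livers (0.46 ± 0.21, adjusted p = 0.21). Non-overlap in that direction held for 9.27% of all genes, and in the other for 11.8%. The triadimefon day 30 change minus the day 4 change was not called for any member (lowest adjusted p 0.48, 0 with an unadjusted p under 0.05), beside 0.491% of all genes called higher and 0.818% lower.

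The conazoles share their control livers, and their diets differed in concentration (2500 and 1800 ppm). Set against each other on day 4, propiconazole livers were above triadimefon livers in 9 of 10 genes, with none called and 3 with an unadjusted p under 0.05, beside 0.981% of all genes called higher and 0.857% lower. The difference was 1.35 ± 0.62 for Hspa1b (95% interval 0.09 to 2.61, adjusted p = 0.22), 0.81 ± 0.54 for Hsph1 (-0.30 to 1.92) and 0.47 ± 0.22 for Dnaja1 (0.03 to 0.91). These intervals hold differences from near 0, and for Hsph1 from below 0, to larger than the triadimefon change itself. On day 30 all 10 differences were negative, from -0.87 to -0.03, and none was called or had an unadjusted p under 0.05, beside 2.22% of all genes called higher and 1.68% called lower.

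**Figure D3:**
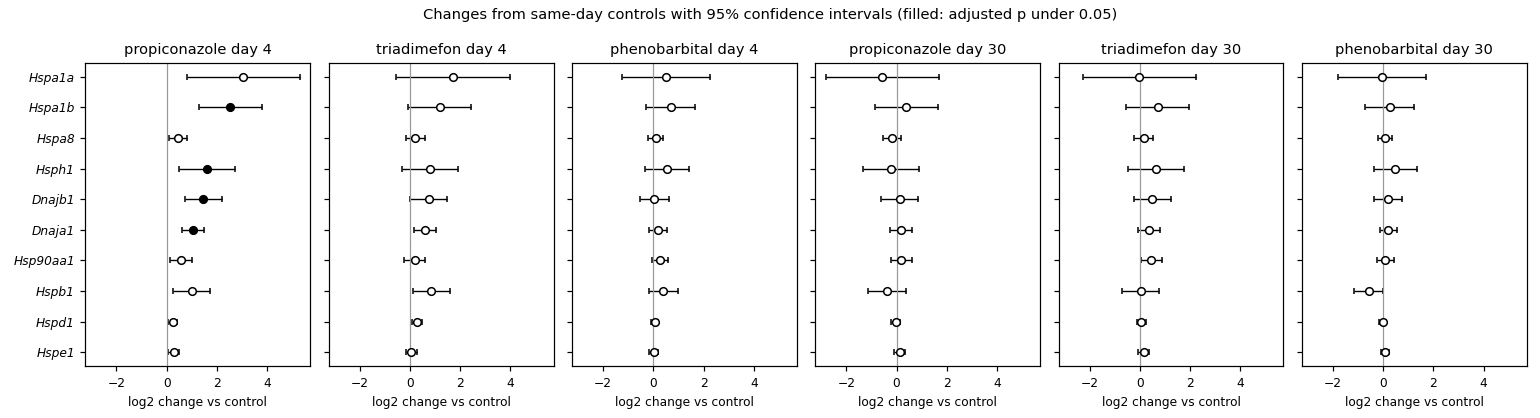
Log2 change of each of the 10 genes from same-day controls of the same experiment, with 95% confidence intervals, for the 3 compounds on days 4 and 30. Filled points have an adjusted p under 0.05 and occur only for Hspa1b, Hsph1, Dnajb1 and Dnaja1 with propiconazole on day 4. On day 30, and with phenobarbital on both days, most intervals span 0.

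With phenobarbital no member passed the test on either day. On day 4 all 10 changes were positive, from 0.02 to 0.69 with a median of 0.23, and none was called or had an unadjusted p under 0.05, beside 0.53% of all genes called higher and 0.147% called lower. Hspa1b read 11.23, 10.16, 9.82, 10.08 and 9.88 in phenobarbital livers on day 4, against 9.01, 9.81, 10.38, 9.49 and 9.02 in control livers, a change of 0.69 ± 0.48 (adjusted p = 0.76). Hsph1 read 10.21, 9.73, 9.41, 9.19 and 9.29 in phenobarbital livers, against 8.48, 9.46, 8.84, 9.27 and 9.06 in control livers (0.54 ± 0.42, adjusted p = 0.82). Replicate 1 was the highest phenobarbital liver in both, and the groups overlapped in all 10 genes, where 2.88% of all genes lay wholly higher and 2.22% wholly lower. Dnaja1 lay at 11.87, 11.68, 11.46, 11.52 and 11.62 in phenobarbital livers and at 11.38, 11.45, 11.51, 11.49 and 11.39 in control livers (0.19 ± 0.17, adjusted p = 0.88). On day 30, 7 of 10 changes were positive, from -0.57 to 0.48, and none was called or had an unadjusted p under 0.05, beside 0.395% of all genes called higher and 0.0846% called lower. Hspb1 had the most negative of them, with 8.33, 8.63, 10.25, 8.79 and 8.93 in phenobarbital livers against 9.68, 9.30, 9.27, 9.62 and 9.92 in control livers (-0.57 ± 0.29, adjusted p = 0.76). Replicate 3 alone stood above the controls there. The day 30 change minus the day 4 change was called for no member, beside 0.00564% of all genes called higher and 0% lower. It had an unadjusted p under 0.05 in 1, Hspb1 (-0.97 ± 0.40).

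The propiconazole change on day 4 exceeded the phenobarbital change in all 10 genes, but no difference was called (3 had an unadjusted p under 0.05), beside 0.97% of all genes called higher and 0.863% lower. It was nearest for Dnaja1 (0.87 ± 0.27, adjusted p = 0.092) and Dnajb1 (1.41 ± 0.46, adjusted p = 0.099). For triadimefon the difference from phenobarbital was positive in 9 of 10 genes on day 4, with a lowest adjusted p of 0.52 and 0 with an unadjusted p under 0.05, beside 0.0226% of all genes called in each direction. On day 30 no member was called or had an unadjusted p under 0.05 in either difference, beside 0.987% of all genes higher and 0.931% lower for propiconazole, and 0.186% higher and 0.265% lower for triadimefon. In control livers of the phenobarbital experiment 8 of 10 genes were higher on day 30 than on day 4. None was called, where 0% of all genes were, and 1 had an unadjusted p under 0.05: Hspb1, with 0.92 ± 0.28.

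Over the 6 groups of the conazole experiment, Hspa1b stood highest in propiconazole livers on day 4 (12.24 ± 0.53), followed by triadimefon livers (11.86 ± 0.31), propiconazole livers (11.53 ± 1.28) and control livers (11.15 ± 0.98) on day 30, triadimefon livers on day 4 (10.89 ± 0.72) and control livers on day 4 (9.71 ± 0.33). Neighbours in this order were closer than the larger of their SDs, except triadimefon and control livers on day 4. Propiconazole day 4 was also the highest group mean of Hspa1a, Hspa8, Hsph1, Dnajb1, Dnaja1 and Hspe1. Hspb1 was highest in triadimefon livers (10.09 ± 0.12) and conazole control livers (10.07 ± 0.16) on day 30, and Hspd1 in triadimefon livers on day 4 (12.74 ± 0.10).

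Livers of the same group differed widely in the inducible genes. The pooled within-group SD, without propiconazole day 4 replicate 2, was 1.44 for Hspa1a, 0.81 for Hspa1b, 0.71 for Hsph1, 0.48 for Hspb1 and 0.45 for Dnajb1. Hspa1a was above background on only 22 of 38 arrays, so its SD includes readings near the floor. The median SD over the 9260 genes above background was 0.20. Hspd1 and Hspe1 were tighter than that median, at 0.10 and 0.13. The 7 cytosolic genes other than Hspb1 deviated together. Over 37 arrays centred on their group means, the 21 pairs among Hspa1a, Hspa1b, Hspa8, Hsph1, Dnajb1, Dnaja1 and Hsp90aa1 had Pearson r of 0.54 to 0.92 with a median of 0.82, and Spearman rho of 0.53 to 0.90. Without the 2 arrays farthest from the median r was 0.47 to 0.89, within the conazole experiment 0.62 to 0.94 and within the phenobarbital experiment 0.48 to 0.94. Hsph1 and Hspa8, which encode partners in 1 cycle, had r = 0.90. These values describe arrays that share normalisation and RNA, and they have no test.

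Hspb1 followed that set less closely (r of 0.32 to 0.52), as did Hspd1 (0.36 to 0.62). Hspe1 did not follow it, with r of -0.05 to 0.13. Within the conazole experiment its r was negative, -0.53 to -0.26, and within the phenobarbital experiment positive, 0.12 to 0.39. The mean of the 7 cytosolic genes had r of -0.37 to 0.27 with the summed level of each of 8 cell type marker lists and with the 3′ excess of Gapdh, Actb and Tfrc.

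**Figure D4:**
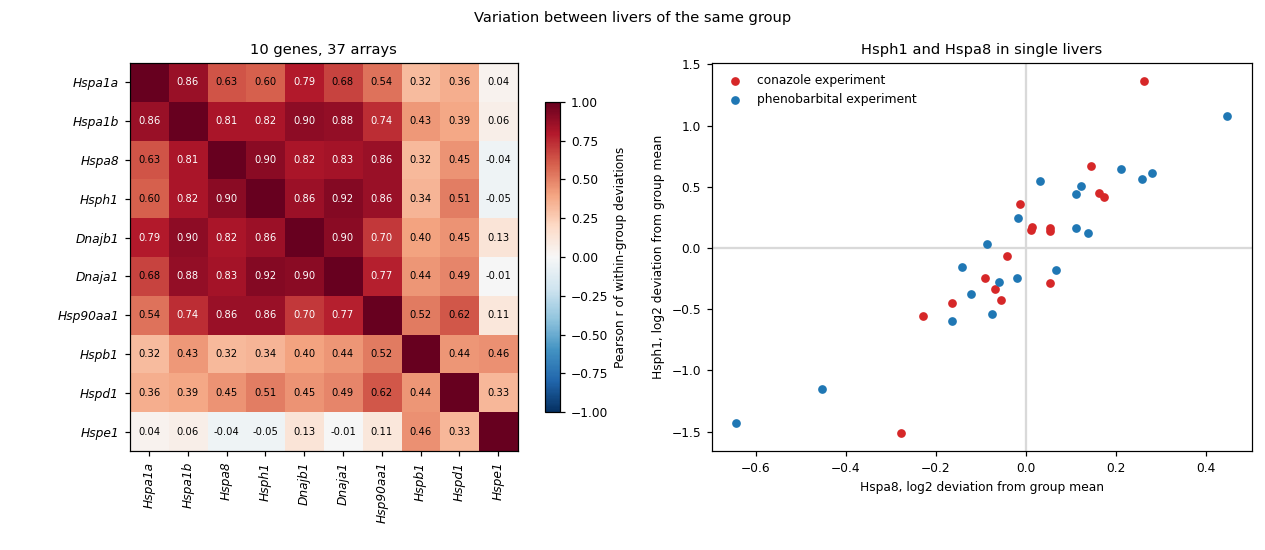
Left, Pearson r between the within-group deviations of each pair of the 10 genes over 37 arrays (propiconazole day 4 replicate 2 left out), in colour and digits. Right, the deviation of Hsph1 against that of Hspa8, 1 point per liver, on log2 axes. The 7 cytosolic genes form a block with r of 0.54 to 0.92, and Hspe1 stands outside it.

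Of 8567 other genes above background, those whose deviations were most like the mean of the 7 cytosolic members were P4ha1 (r = 0.87), Chordc1 (0.86), Ahsa2 (0.84), Slc5a3 (0.80), Tra2a (0.78) and Ahsa1 (0.77), over the same 37 arrays. P4ha1 encodes a collagen prolyl hydroxylase subunit, Slc5a3 an inositol transporter and Tra2a a splicing factor. Chordc1, Ahsa1 and Ahsa2 encode HSP90 cochaperones. On day 4 of propiconazole P4ha1 rose by 1.11 ± 0.36 (adjusted p = 0.037) and Chordc1 by 1.01 ± 0.28 (adjusted p = 0.014), but neither was called without replicate 2 (1.18 ± 0.41 and 0.92 ± 0.31, adjusted p = 0.065 and 0.057). The Ahsa1 difference was 0.06 ± 0.14 (adjusted p = 0.82), and 0.29 ± 0.12 without replicate 2 (adjusted p = 0.14).

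Other genes of the chaperone network were read from lists that hold none of the 10. The lists, too, were chosen with earlier results of these data known. Among 16 measured other heat shock proteins 6 rose and 0 fell in propiconazole livers on day 4 (4 and 0 without replicate 2), with a list median of 0.34, against 0.03 over all genes, of which 7.36% were called higher. The HSP110 relatives Hspa4l and Hspa4 rose by 1.51 ± 0.25 and 0.65 ± 0.14 (adjusted p = 2.1e-04 and 0.0022), the J protein Dnajb4 by 1.42 ± 0.26 (5.7e-04), and the microsome-associated Hspa13 by 1.18 ± 0.24 (0.0017). Hspa13 was the list's gene called in all 4 conazole comparisons, with 1.13 ± 0.24 for propiconazole on day 30, 1.38 ± 0.24 for triadimefon on day 4 and 0.86 ± 0.24 for triadimefon on day 30 (adjusted p = 0.0023, 0.0014 and 0.031). Hspa4 also rose with triadimefon on day 4, by 0.52 ± 0.14 (adjusted p = 0.028). No gene of this list was called with phenobarbital on either day. Of all genes 0.53% were called higher and 0.147% lower with phenobarbital on day 4, and 0.395% and 0.0846% on day 30.

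Of 15 measured cochaperones 2 rose and 1 fell with propiconazole on day 4 (1 and 2 without replicate 2), beside the 7.36% higher and 6.53% lower of all genes, and the list median was -0.04. Bag3, which couples HSP70 to autophagy and is itself a heat shock target, rose by 1.24 ± 0.37 (adjusted p = 0.025). The chaperone-linked ubiquitin ligase Stub1 fell by 1.55 on the log2 scale (adjusted p = 0.018), but by 0.35 without replicate 2 (adjusted p = 0.012), and Chordc1 was not called without it (adjusted p = 0.057). Bag2, an inhibitor of Stub1, rose on day 30 instead, and was at least 1.62-fold higher in propiconazole livers (adjusted p = 0.025) and at least 1.97-fold higher in triadimefon livers (adjusted p = 0.0087) than in control livers, where it was below background. It was above background on 2 of 3 propiconazole arrays, and the propiconazole bound was 1.27-fold without replicate 1. Bag1 was lower with triadimefon on day 30 (-0.37 ± 0.11, adjusted p = 0.036). In this list 1 gene rose and 0 fell with propiconazole on day 30, and 1 rose and 1 fell with triadimefon. Without propiconazole day 4 replicate 2 these counts were 1 and 2, and 1 and 4. Of all genes 5.29% rose and 5.53% fell, and 2.41% and 3%. Of 3 measured heat shock factors and regulators, Hsbp1, which binds and restrains heat shock factor 1, rose by 0.49 ± 0.11 with propiconazole on day 4 (adjusted p = 0.0045), and the other genes of the list were not called in any comparison.

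The cytosolic chaperonin TRiC folds actin and tubulin, and 4 of its 8 subunits rose with propiconazole on day 4 (3 without replicate 2), Cct2 by 0.59 ± 0.09, Cct3 by 0.52 ± 0.14, Cct5 by 0.47 ± 0.10 and Cct4 by 0.28 ± 0.08 (adjusted p = 8.6e-05, 0.012, 0.0028 and 0.026). Beside these counts, and those of the endoplasmic reticulum and mitochondrial lists below, 7.36% of all genes were called higher. Without replicate 2 that share was 4.43%. Without replicate 2 Cct2 and Cct5 stayed called, Cct3 (0.34, adjusted p = 0.12) and Cct4 (0.25, adjusted p = 0.089) did not, and 1 other subunit was called. Triadimefon livers on day 4 had Cct2 and Cct8 higher, by 0.53 ± 0.09 and 0.29 ± 0.07 (adjusted p = 0.0010 and 0.023), beside 2.1% of all genes. On day 30 Cct3 rose with both conazoles, by 0.42 ± 0.14 with propiconazole and 0.49 ± 0.14 with triadimefon (adjusted p = 0.048 and 0.032). Of all genes 5.29% and 2.41% were called higher in these comparisons. Of 13 chaperones of the endoplasmic reticulum 3 rose with propiconazole on day 4 (4 without replicate 2): the J proteins Dnajb9 and Dnajc3 by 1.61 ± 0.24 and 0.51 ± 0.17, and Hspa5, the main HSP70 there, by 0.51 ± 0.17 (adjusted p = 6.2e-05, 0.039 and 0.040). Without replicate 2 Dnajc3 was not called (0.34, adjusted p = 0.24), Dnajb9 and Hspa5 were, and 2 others of the list were called as well. The median change of this list on day 4 was 0.26 with propiconazole, 0.17 with triadimefon and 0.33 with phenobarbital. The medians over all genes were 0.03, 0 and 0. With triadimefon on day 4, 0 genes of this list were called, and 3 were called higher in the fit without propiconazole replicate 2. Of 7 mitochondrial chaperones and proteases Dnaja3 alone rose, by 0.34 ± 0.09 (adjusted p = 0.010, and 0.087 without replicate 2). In phenobarbital livers 0 of the 62 measured genes of these lists were called by limma on either day. Of all genes 0.53% were called higher and 0.147% lower on day 4, and 0.395% and 0.0846% on day 30. Such shares give few or no calls among 62 genes. Of the 62, 11 on day 4 and 2 on day 30 had an unadjusted p under 0.05.

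**Figure D5:**
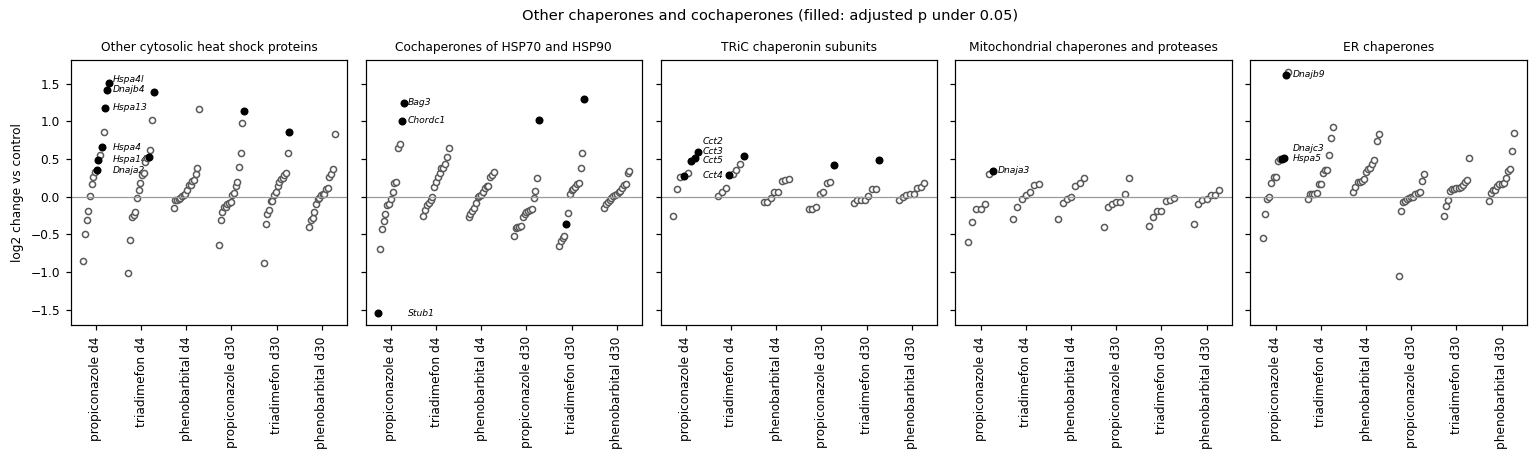
Log2 change from same-day controls for the measured genes of 5 further chaperone lists, 1 point per gene, by compound and day. Filled points have an adjusted p under 0.05 and are named for propiconazole on day 4, where most of them lie. No point is filled for phenobarbital, with which few of all genes were called.

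Of 10 immediate early genes, which respond within minutes to many stimuli, 1 rose and 3 fell with propiconazole on day 4 (2 and 2 without replicate 2), beside the 7.36% higher and 6.53% lower of all genes. Atf3, a stress-induced transcription factor, was at least 1.36-fold higher in propiconazole livers than in control livers, where it was below background (change 2.24 ± 0.41, adjusted p = 6.5e-04), and it was above background on 2 of 3 propiconazole arrays. Without propiconazole replicate 1 the treated mean was 5.95, under background, and no bound held. Egr1 fell by 3.39 on the log2 scale (adjusted p = 0.012) and Ier2 by 1.10 (adjusted p = 0.0069, and 0.093 at a change of -0.63 without replicate 2). Junb was also called lower (adjusted p = 0.0049, and 0.043 without replicate 2), but was above background on only 1 of 3 propiconazole arrays, so the size of its change is uncertain. With triadimefon on day 4 Egr1 fell by 3.42 (adjusted p = 0.028), but it was above background on only 2 of 3 triadimefon arrays, so this size is uncertain. Of 13 clock genes 1 was called with propiconazole on day 4, near the 6.53% of all genes called lower: Cry2, which fell by 1.57 (adjusted p = 0.0029), and by 0.86 without replicate 2 (adjusted p = 0.032). Cry2 was above background on 2 of 3 propiconazole arrays, so the size of its change is uncertain. The part of these immediate early and clock genes in the heat shock changes was not tested.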

How the data were processed

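Livers of 38 mice were measured on 1-colour Affymetrix arrays. The authors deposited a linear intensity for each probe set on each array, and 21.2% of these were below 0. The summarising software was not given in the sources used here. Medians of the deposited intensities ran from 12.5 to 34.5 in the conazole and from 25.0 to 36.1 in the phenobarbital experiment, so arrays were quantile normalised, values below 0 set to 0, and log2(value + 16) taken. Arrays carry no read depth, and the number of livers limits the precision.

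The platform annotation gave 1 symbol to 34958 of 45101 probe sets, several to 932, and 9211 were unlisted. Each gene was represented by its probe set with the highest mean, and 465 genes constant on all arrays were left out. Gene symbols of the members matched RefSeq by gene ID. Background was the 95th percentile of 38 olfactory receptor genes. A gene below background on all arrays of a group has only a bound, written with at least: readings of the dimmer group under background were raised to it before its mean was set against that of the brighter group.

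A linear model with a mean for each group, over the 38 arrays together, was run in R 4.3.3 with limma 3.58.1 (empirical Bayes with an intensity trend, 28 residual and 2.91 prior degrees of freedom), for 17 two-sided contrasts, with p adjusted by Benjamini-Hochberg over all genes, and over 33618 probe sets where each probe set was tested. Labels call the samples biological replicates. Same-numbered livers did not deviate together (r from -0.10 to 0.16 between treated and control livers), so numbers were not taken as pairs. The fit was run on simulated data in which 50 genes each were changed by 0.5, 1, 2 or 3 log2 units. It called 13, 39, 47 and 50 of them, with 9 false calls. A gene was given the same spread on every simulated array, so unequal spread between arrays was not covered. Members and lists were chosen with earlier results of these data known. All 10 members are named whatever their values. From each list the counts are given, and the called genes of largest change, up to 4 per comparison, may be named. Alternatives were other scalings, pseudocounts, filters, probe set summaries and fits, the replicate block, and leaving out each liver.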

Additional observations from a re-analysis of the deposited data

Results flagged for a closer look

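Each of the 10 genes was tested in each group of 5 livers, 40 tests in all. In 1 of them, Hspa1b in phenobarbital livers on day 4, 1 liver lay far from the rest. Replicate 1 read 11.23, and the nearest of the other 4 livers read 10.16, a gap of 0.76 of the group's range. Chance marks about 1 in 20 such tests this way, so 1 in 40 is no more than chance gives. The genes were measured on the same livers, so the tests are not independent. In none of the 70 tests of a difference between changes, over days or compounds, was a member called.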

How the results depend on the processing

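Of 60 member results (10 genes in 6 comparisons), 4 were called, and none of them changed sign under any of the 72 alternatives run for them. The call was lost in 17: in 9 of 18 for Hsph1 (changes 1.35 to 1.95, adjusted p 0.029 to 0.54), 4 of 18 for Dnajb1 (1.11 to 1.74, 0.0043 to 0.31), 2 of 18 for Hspa1b (2.34 to 3.06, 0.0038 to 0.32) and 2 of 18 for Dnaja1 (0.86 to 1.21, 9.6e-04 to 0.21). Members called higher with propiconazole on day 4, 4 as reported, were 8 when only genes above background were tested, 2 with intensities as deposited, 2 with arrays of the same experiment only, 0 with the compared groups alone and 0 with array weights. Genes called higher in all were 1089 of 9260 with genes above background, and 141 of 17402 with arrays of the same experiment. With array weights 44 genes were called higher and 54 lower in all, against 1305 and 1158, and 4 members kept an unadjusted p under 0.05. Propiconazole day 4 replicates 1, 2 and 3 had the lowest weights of all arrays, at 0.38, 0.07 and 0.45. The other conazole arrays had weights of 0.48 to 0.95, and the phenobarbital arrays of 1.11 to 2.13. With the compared groups alone 6 genes were called and 8 members had an unadjusted p under 0.05. The values as deposited moved the median of all genes by -0.19 for propiconazole and 0.17 for triadimefon on day 4. They split the propiconazole calls into 221 higher and 2377 lower, against 1305 and 1158. They gave 2 members higher for triadimefon on day 4 (0 as reported), beside 1544 genes higher in all, against 373. They gave 1 member lower in propiconazole minus triadimefon on day 4 (0 as reported). Leaving out single livers gave 0 to 1 members higher for triadimefon on day 4 (Hspd1, without triadimefon replicate 3 or propiconazole replicate 2) and 0 to 2 members lower for the propiconazole day 30 minus day 4 change (2 without propiconazole day 30 replicate 2). The replicate block gave 4 members higher with propiconazole on day 4, with 1026 genes called higher and 939 lower in all, and changed no other member count. Of 1138 alternatives of uncalled results 14 gained a call. The causes were not tested. Arrays give no read depth, and groups of 3 to 5 livers limit the precision.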
